A study of Mus musculus with 8 samples.

Results

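The JmjC histone lysine demethylases described here are 10 genes, Jmjd1c, Kdm3b, Kdm4a, Kdm4c, Kdm5b, Kdm5c, Kdm6a, Kdm6b, Kdm7a and Kdm8. They were chosen by name, as JmjC demethylases with a probeset that carries their symbol alone, out of 14995 genes with such a probeset. All 10 have 1 probeset of their own, and all 10 passed the filter on low values that left 11444 genes for testing (a mean log2 value above 2.07, the 30th percentile of all probesets). RNA was measured on Affymetrix arrays in 8 pools of 2-cell mouse embryos, 1 array per pool. C57BL/6 females, the mothers in all groups, were given 5 IU of eCG and of hCG and mated with C57BL/6 males (3 arrays), with males transgenic for KDM1A (KDM1A TG, 3 arrays) or with nonTG males (2 arrays), and the groups are named here by the sire. In the sample titles the KDM1A TG group is called TG3 and the nonTG group nonTG3, so these 2 groups share a designation that the C57BL/6 group lacks. An average pool held 26 embryos, washed out of the oviducts 46 to 48 hours after hCG. The sources used here do not give the transgene's promoter, the ages of the mice or how many embryos inherited the transgene. Nothing in the labels tells if pools of 1 group had separate sires and dams, so p-values measure only how far these samples spread, which can be technical variation.

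JmjC demethylases remove methyl groups from lysines of histone tails by oxidation, using iron, oxygen and 2-oxoglutarate, and can act on trimethylated lysine. KDM1A, the transgene of the sires, belongs to another family, which uses a flavin cofactor and does not act on trimethylated lysine. At the 2-cell stage the mouse embryo starts transcription of its own genome, and the broad H3K4 trimethylation inherited from the oocyte, as well as H3K9 methylation and H3K27 methylation, is being remodelled. Kdm5a and Kdm5b are known for removing the broad H3K4 trimethylation at this stage. Kdm1a itself was not analysed here.

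The 8 arrays had medians of 2.73 to 2.86 on the log2 scale and correlated pairwise at 0.889 to 0.967 over 22961 probesets. The interquartile range was 2.38 and 2.60 in KDM1A TG replicates 1 and 3 and 1.87 to 2.09 in the other 6 arrays, so these 2 arrays stand apart. Maternal oocyte markers (14 of 18 listed genes) had means of 3.77 to 4.75 over the arrays, and 2-cell markers (14 of 16) of 3.23 to 4.52. Of these, Bmp15, a growth factor of the oocyte, lay between 4.33 and 6.18 and the 2-cell gene Zscan4c between 2.72 and 4.45. The lowest Zscan4c value, in nonTG replicate 1, was under the median of that array (2.82). Mos of the maternal list and Tcstv1 of the 2-cell list did not pass the filter. Markers of the oviduct epithelium had means of 5.40 to 6.53 (18 of 19 listed genes), among them Foxj1, the regulator of motile cilia, at 4.62 to 6.29. In a pooled sample, fewer cells of a type and less RNA per cell cannot be told apart. All values below are log2 expression values as deposited or differences between them.

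No demethylase gene passed the test for a difference between sires. None of the 10 passed limma's test at an adjusted p under 0.05 in KDM1A TG against C57BL/6, where 0.725% of all genes were called, in nonTG against C57BL/6, where 0.131% were called, or in KDM1A TG against nonTG, where 0.0437% were called. At an unadjusted p under 0.05, 0 of the 10 passed in each comparison, where 14.2%, 8.22% and 6.41% of all genes did. The median change of the 10 genes was 0.26 for KDM1A TG against C57BL/6, beside 0.18 for all genes tested. It was 0.10 beside 0.04 in nonTG minus C57BL/6, and 0.03 beside 0.16 in KDM1A TG minus nonTG. These 3 differences from all genes were 0.08, 0.06 and -0.12, and their own spread was not estimated. Between arrays of a group, the members' median level relative to all genes had an SD of 0.26, a spread of single arrays and not of changes. In the nonTG comparison with C57BL/6 the difference was 0.31 without nonTG replicate 1 and -0.14 without nonTG replicate 2. Of the 10 genes, 7 lay above 0 for KDM1A TG against C57BL/6, where 64.9% of all genes did, but 5 after quantile normalization, 3 after cyclic loess scaling and 8 after median centring. In the nonTG comparison with C57BL/6 6 lay above 0, where 53.2% of all genes did, and in that of KDM1A TG with nonTG 5, where 65.4% did. The first 2 comparisons share the C57BL/6 arrays. The widest 95% interval of a fold change among the 10 genes reached 2.49, for Kdm5c in KDM1A TG against nonTG, and the number of arrays limits the precision to intervals of that width.

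**Figure D1:**
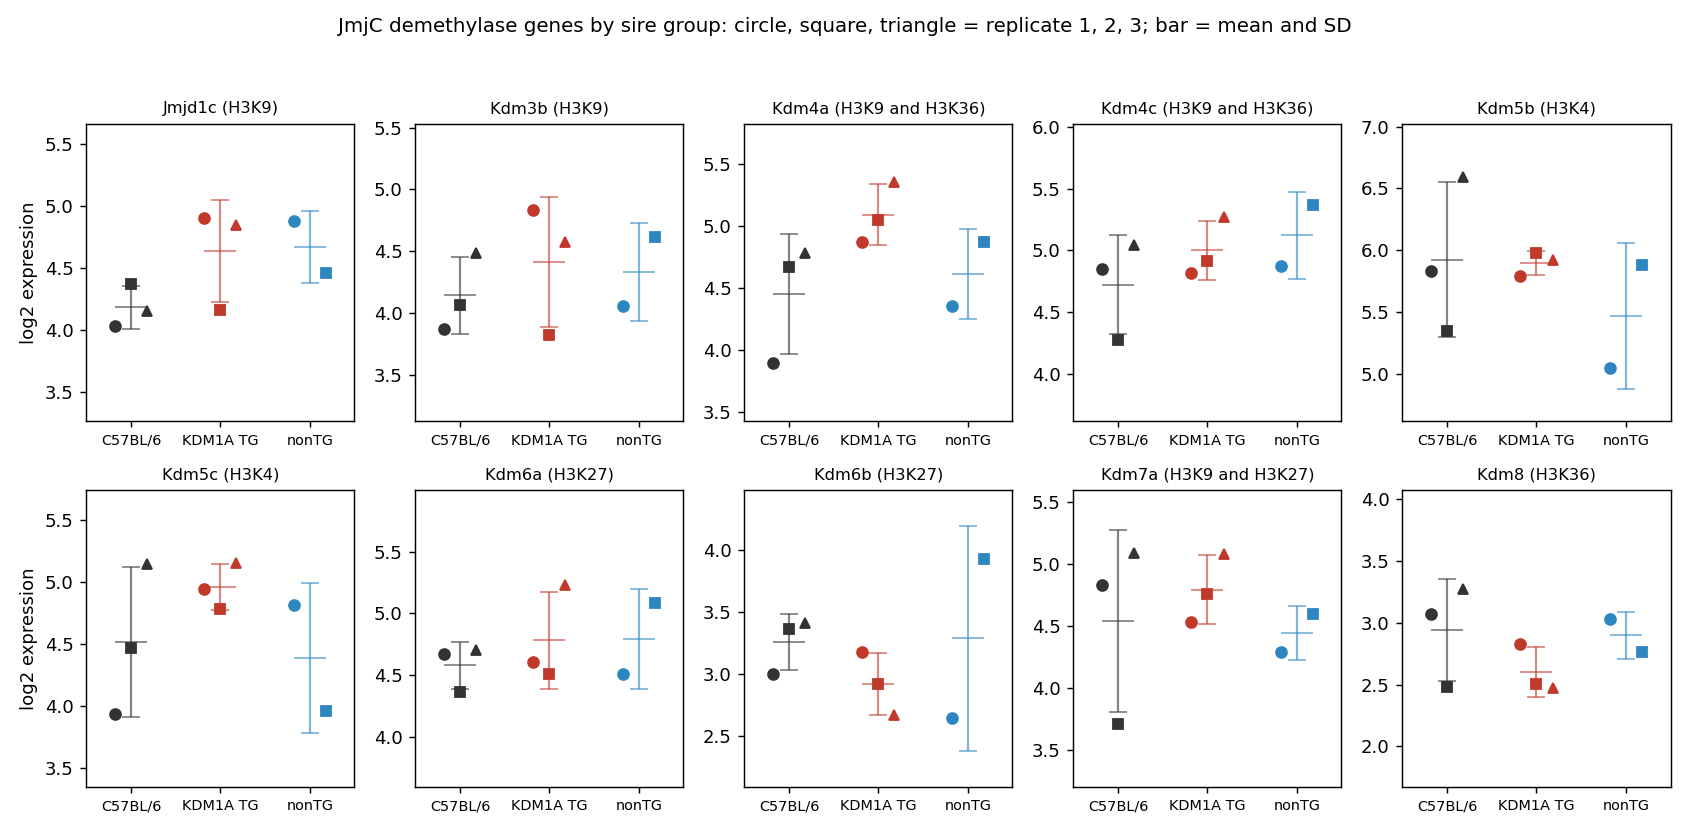
Log2 expression of each demethylase gene (y axis, each panel spanning the same range around its own gene) in the arrays of the 3 sire groups (x axis); points are single arrays, with the replicate number shown by their shape, and bars give the mean and SD. Kdm4a is the gene whose 3 KDM1A TG arrays (4.87 to 5.36) all lie above the 3 C57BL/6 arrays (3.89 to 4.78), and Kdm5b is nearly level in KDM1A TG (SD 0.10) and spread in C57BL/6 (SD 0.63).

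The sequence upstream of the start site is printed for Kdm4c and Kdm6a, the pair with the highest Pearson correlation across the arrays, and for Jmjd1c and Kdm5b, the genes set against oviduct and maternal marker levels below. They are the 250 bases before the start from RefSeq on GRCm38.p6, for Kdm4c at chr4:74251629-74251878, for Kdm6a at chrX:18162325-18162574, for Jmjd1c at chr10:67126838-67127087 and for Kdm5b at chr1:134559928-134560177, all on the plus strand. Capitals mark matches, on either strand, to any of 5 motifs, which can overlap one another: the GC box bound by Sp1 factors (GGGCGG), the CCAAT box, the TATA box (searched as TATAAA), the E-box (searched as CACGTG) and an NRF1-type site.
Kdm4c: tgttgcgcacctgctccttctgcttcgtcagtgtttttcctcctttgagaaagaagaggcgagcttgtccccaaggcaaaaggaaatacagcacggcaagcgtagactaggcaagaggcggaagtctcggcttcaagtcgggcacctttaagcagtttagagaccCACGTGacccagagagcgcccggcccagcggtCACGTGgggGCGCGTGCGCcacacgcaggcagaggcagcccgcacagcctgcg
Kdm6a: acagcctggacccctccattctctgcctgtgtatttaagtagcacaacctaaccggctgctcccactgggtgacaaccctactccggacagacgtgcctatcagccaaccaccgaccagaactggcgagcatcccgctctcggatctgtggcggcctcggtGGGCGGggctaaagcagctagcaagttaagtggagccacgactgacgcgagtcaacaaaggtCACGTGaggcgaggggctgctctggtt
Jmjd1c: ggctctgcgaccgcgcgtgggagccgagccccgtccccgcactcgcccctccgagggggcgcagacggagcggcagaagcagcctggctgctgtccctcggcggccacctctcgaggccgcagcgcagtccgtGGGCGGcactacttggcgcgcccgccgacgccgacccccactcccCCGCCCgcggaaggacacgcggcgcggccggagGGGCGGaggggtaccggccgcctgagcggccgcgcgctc
Kdm5b: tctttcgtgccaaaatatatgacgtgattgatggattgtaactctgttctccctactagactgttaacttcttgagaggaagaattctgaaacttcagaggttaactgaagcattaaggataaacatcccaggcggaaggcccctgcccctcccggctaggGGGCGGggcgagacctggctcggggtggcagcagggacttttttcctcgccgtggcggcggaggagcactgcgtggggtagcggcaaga

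The windows of Kdm4c and Kdm6a hold CACGTG, at 2 places and at 1 place. Of 32851 windows of the same length before RefSeq starts, 6.02% hold it. The Kdm4c window also holds the NRF1-type site, found in 3.74% of windows, and those of Kdm6a, Jmjd1c and Kdm5b hold GGGCGG at 1, 3 and 1 places, found in 32.7%. TATAAA is in none of the 10 windows of demethylase genes and in 12.4% of all. Kdm4c, Kdm6a, Jmjd1c and Kdm5b have 19, 15, 40 and 13 CpG dinucleotides in these windows, where the median window has 6. Windows were taken for 8 of the 10 genes, not for Kdm3b and Kdm6b. The search for windows of demethylase genes left out chr18, which is kept among all windows. A second start each for Kdm4c and Jmjd1c is not printed. The second Kdm4c window holds 0 CpG dinucleotides and that of Jmjd1c 11, and neither holds any of the motifs searched. A match says only that these letters are present.

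Jmjd1c and Kdm3b belong to the KDM3 family, described as demethylases of mono- and dimethylated H3K9. Jmjd1c is also known as a coregulator of transcription in the germ line and in pluripotent cells. It stood at 4.03, 4.37 and 4.15 in C57BL/6 replicates 1, 2 and 3, at 4.90, 4.16 and 4.85 in KDM1A TG, and at 4.88 and 4.46 in nonTG. KDM1A TG replicate 2 lies among the C57BL/6 arrays, while the other 2 KDM1A TG arrays and both nonTG arrays lie above all of them. The change was 0.45 for KDM1A TG against C57BL/6 (SE 0.32, 95% interval -0.19 to 1.10, limma adjusted p = 0.503) and 0.49 for nonTG against C57BL/6 (SE 0.36, 95% interval -0.24 to 1.21, adjusted p = 0.725). Arrays that do not overlap in this direction, as in the second comparison, occurred for 15.4% of all genes. Kdm3b stood at 3.87, 4.07 and 4.49 in C57BL/6, at 4.84, 3.82 and 4.58 in KDM1A TG and at 4.06 and 4.62 in nonTG. Its groups overlap in every comparison, and its lowest and highest arrays are both of KDM1A TG.

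Kdm4a and Kdm4c belong to the KDM4 family, which removes trimethylation from H3K9 and H3K36. In the mouse oocyte Kdm4a is known to keep H3K9 trimethylation out of broad domains of H3K4 trimethylation. Kdm4a had the largest change of the 10 genes in KDM1A TG against C57BL/6. Its values were 3.89, 4.67 and 4.78 in C57BL/6, 4.87, 5.05 and 5.36 in KDM1A TG, and 4.35 and 4.87 in nonTG. The KDM1A TG arrays lie above the C57BL/6 arrays without overlap, which 14.5% of all genes do in that direction, and the lowest KDM1A TG array (4.872) is just above the higher nonTG array (4.866), a lack of overlap seen for 16% of all genes. The change was 0.64 (1.56-fold, SE 0.33, 95% interval -0.01 to 1.30, unadjusted p = 0.0533, limma adjusted p = 0.358), larger than 87.3% of all changes in this comparison. Against nonTG it was 0.48 (SE 0.37, adjusted p = 0.847). With array weights, a setting under which 1694 genes passed in place of 83, Kdm4a also passed for KDM1A TG against C57BL/6 (log2 change 0.78, adjusted p = 0.0493), and after cyclic loess scaling its change was 0.33 (adjusted p = 0.797). Without C57BL/6 replicate 1, its lowest array, the change was 0.37 (limma adjusted p = 0.74), and against nonTG it was 0.22 without nonTG replicate 1 and 0.74 without nonTG replicate 2.

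Kdm4c stood at 4.85, 4.27 and 5.05 in C57BL/6, 4.82, 4.91 and 5.27 in KDM1A TG, and 4.88 and 5.37 in nonTG. Its groups overlap, with C57BL/6 replicate 2 lowest of the 8 arrays. Its changes were 0.28 for KDM1A TG and 0.40 for nonTG against C57BL/6 (SE 0.33 and 0.36, limma adjusted p = 0.675 and 0.776).

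Kdm5b and Kdm5c remove trimethylation and dimethylation from H3K4, the residue on which KDM1A also acts. Kdm5b stood at 5.83, 5.35 and 6.59 in C57BL/6, at 5.79, 5.98 and 5.92 in KDM1A TG, and at 5.05 and 5.88 in nonTG. The KDM1A TG arrays lie inside the range of the C57BL/6 arrays and within 0.19 of each other. The change was -0.03 for KDM1A TG (SE 0.33, 95% interval -0.69 to 0.64, limma adjusted p = 0.971) and -0.46 for nonTG against C57BL/6 (SE 0.37, 95% interval -1.20 to 0.29, adjusted p = 0.744). The first of these had no stable sign: it was 0.31 without C57BL/6 replicate 3, the highest array for this gene, and 0.43 when the mean level of oviduct markers entered as a covariate. Kdm5c, an X-linked gene, stood at 3.94, 4.47 and 5.14 in C57BL/6, at 4.95, 4.78 and 5.16 in KDM1A TG, and at 4.81 and 3.96 in nonTG. Both C57BL/6 and nonTG span a range of over 0.8, and the KDM1A TG arrays lie at or near the top of it. Kdm5c had the largest change of the 10 genes against nonTG, 0.57 (1.49-fold, SE 0.37, 95% interval -0.17 to 1.32, limma adjusted p = 0.847), and its change against C57BL/6 was 0.45 (SE 0.33, adjusted p = 0.516). Its 2 nonTG arrays lie far apart: the change against nonTG was 1.001 without nonTG replicate 1 and 0.15 without nonTG replicate 2, when that of Kdm5b was 0.85.

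**Figure D2:**
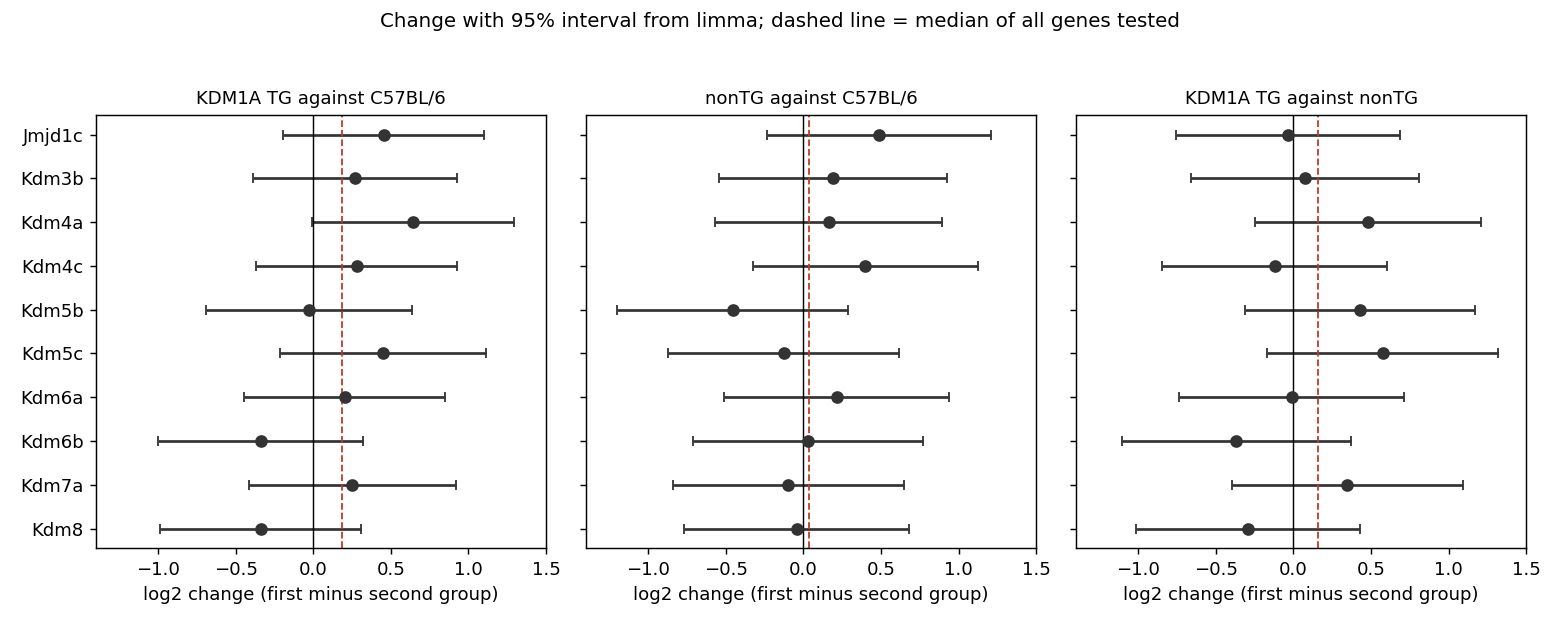
Log2 change of each demethylase gene (x axis) with its 95% interval from limma in the 3 comparisons, with the median of all genes tested as a dashed line (0.18, 0.04 and 0.16). Every interval includes 0, and for Kdm4a in KDM1A TG against C57BL/6 it runs from -0.01 to 1.30.

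Kdm6a and Kdm6b remove trimethylation and dimethylation from H3K27, the mark of Polycomb repression. Kdm6a, also X-linked, is a subunit of the complexes that hold the H3K4 methyltransferases Kmt2c and Kmt2d. It stood at 4.67, 4.36 and 4.70 in C57BL/6, at 4.61, 4.51 and 5.23 in KDM1A TG, and at 4.51 and 5.08 in nonTG. KDM1A TG replicate 3 and nonTG replicate 2 are high, and the other 6 arrays lie between 4.36 and 4.70. Kdm6b stood at 2.998, 3.36 and 3.42 in C57BL/6, at 3.17, 2.92 and 2.67 in KDM1A TG, and at 2.65 and 3.93 in nonTG. The 2 nonTG arrays hold both its lowest and its highest value, so its nonTG mean of 3.29 ± 0.91 (SD, n = 2) describes neither. The change of Kdm6b was -0.34 for KDM1A TG against C57BL/6 (SE 0.33, limma adjusted p = 0.618), and that of Kdm6a was 0.20 (SE 0.33, adjusted p = 0.771), or -0.07 after quantile normalization and -0.11 after cyclic loess scaling.

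Kdm7a acts on dimethylated H3K9 and H3K27 and binds trimethylated H3K4 through a PHD finger. It stood at 4.83, 3.71 and 5.09 in C57BL/6, at 4.54, 4.76 and 5.09 in KDM1A TG, and at 4.29 and 4.60 in nonTG. C57BL/6 replicate 2 is the lowest of the 8 arrays and C57BL/6 replicate 3 the highest, so the range within 1 group holds all others. Kdm8, also called Jmjd5, was described as an H3K36 demethylase and also acts as a hydroxylase of other proteins. It stood at 3.07, 2.48 and 3.28 in C57BL/6, at 2.83, 2.50 and 2.47 in KDM1A TG, and at 3.03 and 2.76 in nonTG, with overlap between all groups. Its change was -0.34 for KDM1A TG against C57BL/6 (SE 0.32, limma adjusted p = 0.611), below 0 as for Kdm6b. Together with Kdm5b (-0.03), these were the genes below 0 in that comparison. Kdm8 and Kdm6b are the 2 genes whose values lie nearest to the filter level of 2.07.

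Grouped by substrate, the H3K9 genes Jmjd1c, Kdm3b, Kdm4a and Kdm4c, of which Kdm4a and Kdm4c also act on H3K36, had changes of 0.45, 0.27, 0.64 and 0.28 for KDM1A TG against C57BL/6 and of 0.49, 0.19, 0.16 and 0.40 for nonTG against C57BL/6. The H3K4 genes Kdm5b and Kdm5c had changes of -0.03 and 0.45, and of -0.46 and -0.13. The H3K27 genes Kdm6a and Kdm6b had changes of 0.20 and -0.34, and of 0.21 and 0.03. Kdm7a, which belongs with both the H3K9 and the H3K27 genes, had changes of 0.25 and -0.10, the second opposite in sign to those of the other H3K9 and H3K27 genes. Kdm8, described for H3K36, had changes of -0.34 and -0.04, where Kdm4a and Kdm4c lay above 0. None of these passed the test, and of the H3K9 genes Kdm3b and Kdm4c turned to -0.003 and -0.05 in the first comparison after cyclic loess scaling, where all genes had a median of 0.07 in place of 0.18.

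The demethylase genes varied between arrays about as much as other genes, and which array was high differed by gene. The SD over the 8 arrays ran from 0.30 for Kdm6a to 0.49 for Kdm5c, at the 15.6th and 75.8th percentiles of all genes tested. KDM1A TG replicate 3 and C57BL/6 replicate 3 held the highest value for 3 genes each, and C57BL/6 replicates 1 and 2 the lowest for 3 genes each. The mean over the 10 genes was 4.20, 4.11 and 4.67 in C57BL/6, 4.53, 4.34 and 4.66 in KDM1A TG, and 4.25 and 4.55 in nonTG, with overlap between all groups.

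Of the 20 relations between a demethylase gene and a marker level, 1 passed after adjustment, by Spearman's rho and not by Pearson's r. Each measure was adjusted on its own, so the adjustment does not cover the use of both. The permutations did not keep arrays within their sire group. Jmjd1c was higher where oviduct epithelial markers were higher (Pearson r = 0.910, exact permutation p = 0.00389, adjusted p = 0.0779; Spearman rho = 0.929, exact permutation p = 0.00223, adjusted p = 0.0446; n = 8 arrays, two-sided, adjusted over 20 relations of 10 genes with 2 marker lists). Without the 2 arrays farthest from the median marker level, C57BL/6 replicates 1 and 3, r was 0.917. The oviduct marker means were 5.67, 6.18 and 5.40 in C57BL/6, 6.53, 5.76 and 6.52 in KDM1A TG, and 6.30 and 6.07 in nonTG. KDM1A TG replicate 2, where Jmjd1c was low, has the lowest oviduct level of the KDM1A TG and nonTG arrays. With this marker mean as a covariate, the change of Jmjd1c was 0.09 for KDM1A TG and 0.18 for nonTG against C57BL/6 (limma adjusted p = 0.945 and 0.954), from 0.45 and 0.49 without it. The values for Kdm5b and maternal oocyte markers did not pass (14 of 18 listed genes; Pearson r = 0.784, exact permutation p = 0.0141, adjusted p = 0.141; Spearman rho = 0.786, exact permutation p = 0.0279, adjusted p = 0.279; n = 8 arrays). For Kdm5b r was 0.979 without C57BL/6 replicate 1 and KDM1A TG replicate 2. The maternal means were 4.73, 3.98 and 4.72 in C57BL/6, 4.09, 4.75 and 4.19 in KDM1A TG, and 3.77 and 4.21 in nonTG. Values of a gene and of markers in 1 array share its RNA and its scaling. The other 8 genes had r between -0.52 and 0.65 with either list, and Jmjd1c had r = -0.816 with the maternal markers (exact permutation p = 0.0215, adjusted p = 0.143).

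**Figure D3:**
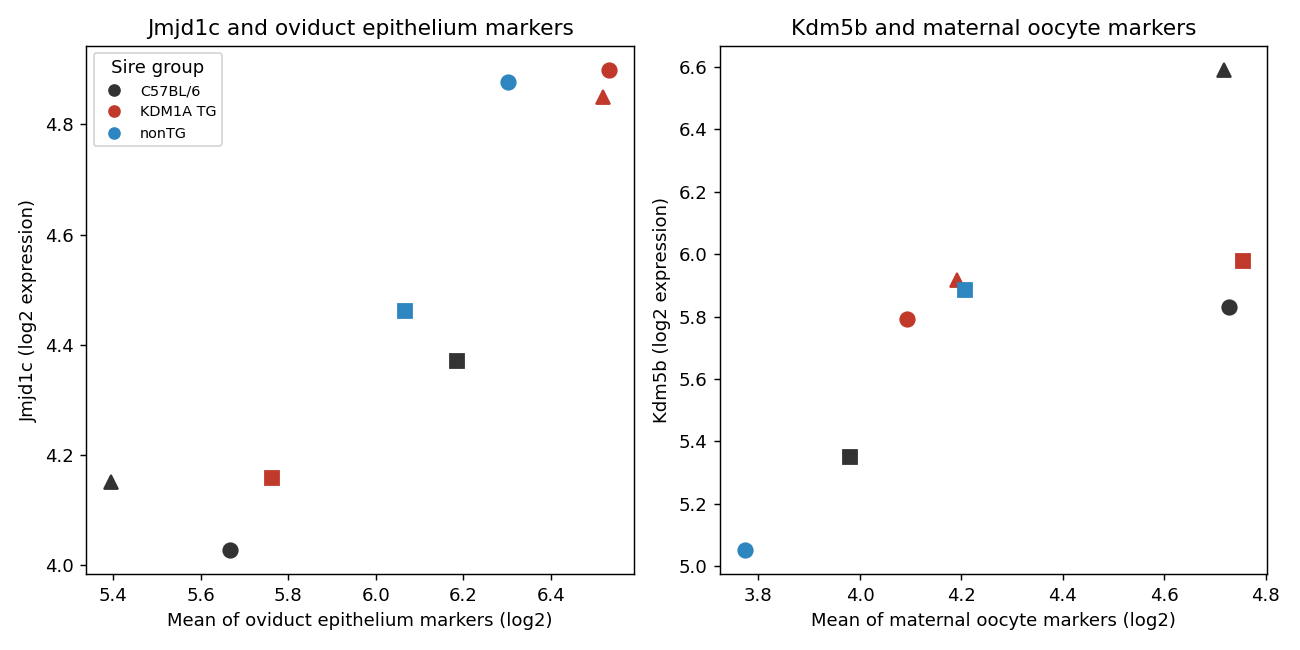
Left, log2 expression of Jmjd1c (y axis) against the mean log2 level of oviduct epithelium markers (x axis); right, Kdm5b against the mean of maternal oocyte markers. Each point is an array, coloured by sire group (circle, square and triangle for replicates 1, 2 and 3). Jmjd1c runs from 4.03 to 4.90 and is higher at higher oviduct levels (r = 0.910), and Kdm5b has r = 0.784 with the maternal level, which does not pass after adjustment, with nonTG replicate 1 lowest on both axes of the right panel.

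Of the other cell types a flushed pool could hold, stroma and muscle markers (14 genes) had means of 3.73 to 4.65 in C57BL/6, 4.69 to 6.12 in KDM1A TG and 4.13 to 5.52 in nonTG. KDM1A TG replicate 3, the highest of these, is also the array with the highest Kdm4a, Kdm5c and Kdm6a. Chosen after their values were seen, as the marker genes called for KDM1A TG against C57BL/6, were Acta2 of this list (log2 change 1.75, limma adjusted p = 0.0155) and the neutrophil gene S100a9 of the blood list (-1.92, adjusted p = 0.0111). Acta2 lost its call without KDM1A TG replicate 3 (1.05, limma adjusted p = 0.807) and without C57BL/6 replicate 3 (1.25, adjusted p = 0.239). S100a9 lost it without C57BL/6 replicate 1 (-0.87, limma adjusted p = 0.522) and without KDM1A TG replicate 3 (-1.71, adjusted p = 0.426). Acta2 and S100a9 also lost it with trend and robust eBayes (limma adjusted p = 0.16 and 0.477) and after quantile normalization (0.354 and 0.305). The same held after cyclic loess (limma adjusted p = 0.391 and 0.264) and with the oviduct covariate (0.627 and 0.604). They kept it with the other filters, median centring and array weights. Cumulus and granulosa markers (6 genes) lay at 2.48 to 3.45, blood and immune markers (6 genes) at 2.69 to 4.60 and sperm markers (4 genes) at 1.80 to 2.41 over the 8 arrays. The part of these cells in the values of the demethylase genes was not tested beyond the oviduct and maternal relations given above.

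Some demethylase genes were high and low in the same arrays. Kdm4c and Kdm6a had the highest Pearson correlation of 45 pairs (Pearson r = 0.857, exact permutation p = 0.00417, adjusted p = 0.188; Spearman rho = 0.786, exact permutation p = 0.0279, adjusted p = 0.551; n = 8 arrays), followed by Kdm5b and Kdm7a (r = 0.771, rho = 0.857, exact permutation p = 0.0287 and 0.0107, adjusted p = 0.512 and 0.482). Kdm4c and Kdm7a had r = 0.765 (rho = 0.595, exact permutation p = 0.0341 and 0.132, adjusted p = 0.512 and 0.744). The windows of Kdm4c and Kdm6a printed above hold CACGTG, while those of Kdm5b and Kdm7a and the second window of Kdm4c do not. A relation of this motif to the values was not tested. The order depends on the measure: by rho Kdm5b and Kdm7a came first, and for deviations from group means Kdm4c and Kdm7a (r = 0.938) and Kdm4c and Kdm5b (0.856) came before Kdm4c and Kdm6a (0.850). No pair passes after adjustment over the 45 pairs, and 36 of them had r above 0. Leaving out the 2 arrays farthest from the median of the first gene gave 0.898, 0.927 and 0.724 for these 3 pairs. C57BL/6 replicate 2 is the lowest array for Kdm4c, Kdm6a and Kdm7a, and this array also has the lowest maternal level and the highest oviduct level of the C57BL/6 arrays. Over all 8 arrays, Pearson r with the maternal and oviduct levels was 0.22 and -0.03 for Kdm4c and 0.05 and 0.21 for Kdm6a. For Kdm7a it was 0.65 and -0.35. Why these genes were low in this array was not tested.

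**Figure D4:**
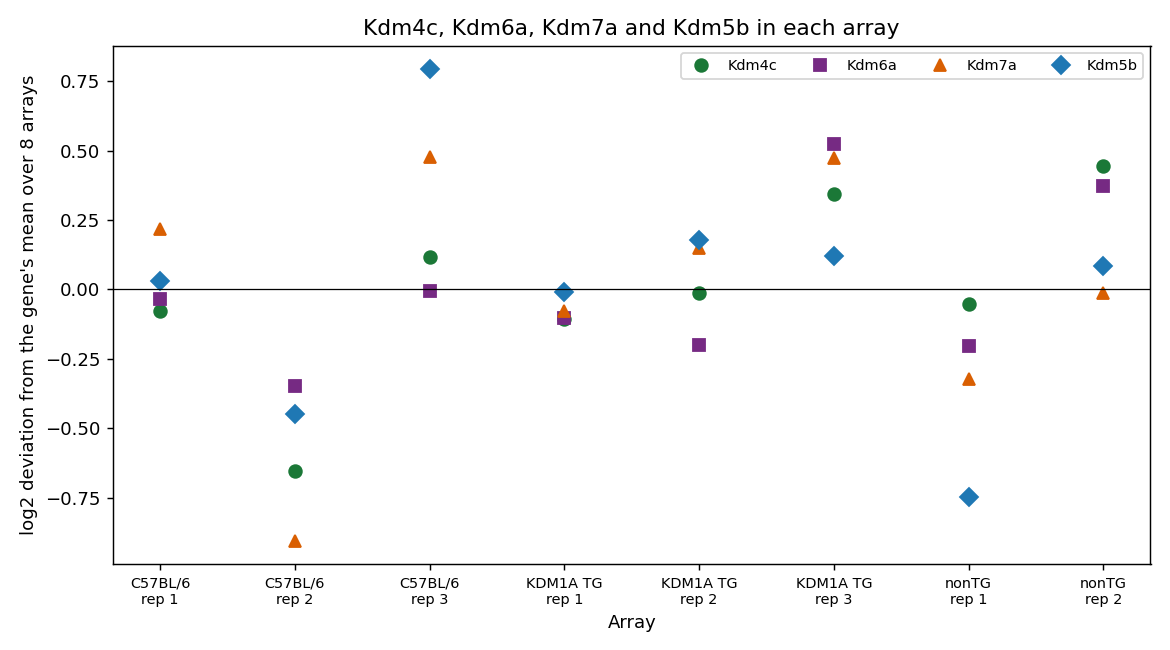
Deviation of Kdm4c, Kdm6a, Kdm7a and Kdm5b from the gene's own mean over the 8 arrays (y axis, log2) in each array (x axis). All 4 genes lie below their means in C57BL/6 replicate 2 and in nonTG replicate 1, and above them in KDM1A TG replicate 3.

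The genes whose values over the 8 arrays were most like 2 of the members were named by correlation alone. For Kdm5c, which had the largest SD, they were Ubac2, Wwp2 and Ppfibp2 (Pearson r = 0.951, 0.944 and 0.940, n = 8 arrays, the 3 highest of 11444 genes, with no test since they were picked for it). For Kdm5b they were Slc7a6os, Wdr43 and Kcmf1 (r = 0.990, 0.986 and 0.978, picked in the same way). In all, 33 genes had r above 0.9 with Kdm5c and 141 with Kdm5b.

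Other genes that share the chemistry or the substrates of the demethylases were taken from 5 lists. Of 21 other JmjC genes, 4 had a probeset of their own (Riox1, Hif1an, Jmjd8 and Hspbap1), and none passed in any comparison. Riox1, a nucleolar oxygenase, had a change of -0.32 for KDM1A TG against C57BL/6, Jmjd8 of 0.32 and Hif1an, the asparagine hydroxylase of HIF, of 0.19. Hspbap1 stood at 3.57, 3.24 and 3.38 in C57BL/6 and at 3.07 and 2.39 in nonTG (log2 change -0.67, SE 0.36, limma adjusted p = 0.646).

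Histone lysine methyltransferases, which set the marks that the demethylases remove, were tested for 10 of 22 listed genes, and none passed. Their median change relative to all genes was 0.01 in KDM1A TG minus C57BL/6, -0.22 in nonTG minus C57BL/6 and 0.22 in KDM1A TG minus nonTG. The H3K9 methyltransferase genes Ehmt1 and Ehmt2 had changes of 0.63 and 0.52 for KDM1A TG against C57BL/6 (limma adjusted p = 0.365 and 0.46), and the H3K4 methyltransferase gene Kmt2a one of 0.28. Of the 8 partners of Kdm6a tested of 9 listed, none passed, and Pagr1a, Ash2l and Kmt2c had changes of 0.37, 0.32 and 0.19. Kmt2d, the methyltransferase of that complex, was picked out after its values were seen. It stood at 4.55, 3.97 and 4.60 in C57BL/6, 4.16, 4.32 and 4.67 in KDM1A TG, and 3.59 and 3.49 in nonTG, with nonTG below both other groups (log2 change -0.84 against C57BL/6, SE 0.36, unadjusted p = 0.0236, adjusted p = 0.498). Kmt2d shares this order with Kmt2a and Ezh2, whose changes for nonTG against C57BL/6 were -0.61 and -0.53 (limma adjusted p = 0.68 and 0.704). These are the 3 of the 10 methyltransferase genes with nonTG below C57BL/6 without overlap. Arrays of nonTG lay below those of C57BL/6 without overlap, as for these genes and Hspbap1, for 9.41% of all genes.

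Enzymes that make or use 2-oxoglutarate, the cosubstrate, or that act on its competitors succinate, fumarate and 2-hydroxyglutarate, were tested for 18 of 21 listed genes. In the main fit none passed over all genes, and 8 of 18 were higher for KDM1A TG against C57BL/6 at an unadjusted p under 0.05, where 12.1% of all genes were. Their median stood 0.43 above that of all genes. Sdha, a subunit of succinate dehydrogenase, stood at 4.90, 5.45 and 5.05 in C57BL/6, 6.17, 6.01 and 6.69 in KDM1A TG, and 5.90 and 6.11 in nonTG. It had a change of 1.16 (SE 0.32, limma adjusted p = 0.0593), beside 1.02 for Idh3b of isocitrate dehydrogenase and 0.93 for the fumarase gene Fh1 (SE 0.34 and 0.33, adjusted p = 0.145 and 0.181). Idh3b and Fh1 in C57BL/6 are highest in replicate 2, at 5.37 and 3.98, the C57BL/6 array with the highest oviduct level. Other genes of the list differ: Glud1 is lowest in that array, at 4.17 against 4.40 and 4.95 in replicates 1 and 3. The cause of these differences was not tested. When the oviduct marker level entered as a covariate, 1 of the 18 genes was higher at an unadjusted p under 0.05 and the median stood 0.20 above all genes, and after quantile normalization 3 were and it stood 0.28 above. For KDM1A TG against C57BL/6, genes of the list passed with no filter (1), after median centring (1), with array weights (7), without C57BL/6 replicate 2 (3) and without KDM1A TG replicate 2 (2). Of all genes, 138, 151, 1694, 262 and 226 passed in these settings. In the other settings none of the list passed in this comparison. Of the other 2-oxoglutarate dioxygenases, 18 of 25 listed genes were tested and none passed. Alkbh8, a tRNA hydroxylase and methyltransferase, had a change of 0.94 for KDM1A TG and 1.35 for nonTG against C57BL/6 (SE 0.34 and 0.38, limma adjusted p = 0.192 and 0.139). The HIF prolyl hydroxylase gene Egln1 had changes of 0.86 and 0.95, and Fto, an RNA demethylase, had 0.59 for KDM1A TG against C57BL/6.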

How the data were processed

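RNA of 8 embryo pools was measured on Affymetrix arrays, in groups of 3, 3 and 2. The authors deposited 1 log2 expression value per probeset and array; R 3.1.0, oligo, RMA and limma stand in the submitters' processing notes without an order, so the background correction is unknown here. No scanner file or detection call was used, and precision is limited by the number of arrays. Of 22961 probesets, 15745 had 1 symbol in the platform annotation, and gene IDs of 15621 matched RefSeq (GRCm38.p6). Each gene took its brightest probeset, and genes with a mean at or under the 30th percentile of all probesets were left out. Group means of all 8 arrays were fitted with limma 3.58.1 (R 4.3.3; lmFit, eBayes, two-sided), p-values were adjusted by Benjamini-Hochberg over the 11444 genes, and the threshold was 0.05. The code was tested on simulated data. Correlations had exact permutation tests over arrays. Named genes are the 10 members, in each list the 3 genes of smallest p for KDM1A TG against C57BL/6 and any gene called, and the 3 genes most correlated with the members of largest SD and largest mean. Hspbap1, Kmt2d and Ezh2 were added after their values were seen. The members and lists were chosen with earlier results of these data known. Alternatives covered the filter, scaling, array weights, variance model, arrays fitted, replicate block, probesets, an oviduct covariate and left-out arrays.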

Additional observations from a re-analysis of the deposited data

How the results depend on the processing

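None of the members passed under the alternatives tried, except Kdm4a with array weights, which gave 1 member called for KDM1A TG against C57BL/6. Of all genes, 83 passed in that comparison, 138 with no filter, 53 with the filter at the 50th percentile, 5 after quantile normalization, 5 after cyclic loess, 151 after median centring, 1694 with array weights, 128 with trend and robust eBayes, 7 with the oviduct covariate, 0 without KDM1A TG replicates 1 and 3 (limma, 304 at an unadjusted p under 0.05) and 9 to 262 without 1 array (9 without KDM1A TG replicate 3, 262 without C57BL/6 replicate 2). For nonTG against C57BL/6 15 passed, and 44 with no filter, 9 at the 50th percentile, 1 after quantile normalization, 1 after cyclic loess, 47 with array weights, 30 with trend and robust eBayes, 6 with the 2 groups alone, 5 with the oviduct covariate and 3 to 79 without 1 array. For KDM1A TG against nonTG 5 passed, and 2 at the 50th percentile, 2 after quantile normalization, 2 after cyclic loess, 3 with array weights, 9 with trend and robust eBayes, 3 with the mean of probesets, 2 without KDM1A TG replicates 1 and 3 and 2 to 17 without 1 array. Without 1 array, the members' median relative to all genes ran from -0.096 to 0.233 for KDM1A TG against C57BL/6, from -0.144 to 0.315 for nonTG against C57BL/6 and from -0.242 to 0.155 for KDM1A TG against nonTG. Replicate numbers are in the labels, which do not say if they pair the samples. Same-numbered arrays' deviations from group means correlated at -0.378 to 0.179. That cannot settle the pairing, since differently numbered arrays were not compared. The replicate block gave 76, 23 and 4 genes called in the 3 comparisons.

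Signs turned as follows, and the cause was not tested. For KDM1A TG against C57BL/6, without KDM1A TG replicates 1 and 3, Jmjd1c was -0.024, Kdm3b -0.32, Kdm5b 0.055 and Kdm6a -0.071; after cyclic loess Kdm3b was -0.0030, Kdm4c -0.050, Kdm6a -0.11 and Kdm7a -0.054; after quantile normalization Kdm6a was -0.067 and Kdm7a -0.0077; and Kdm5b was 0.043 after median centring and 0.43 with the oviduct covariate. Without 1 array, Kdm5b ran from -0.31 to 0.31, Kdm6a from -0.022 to 0.34 and Kdm7a from -0.17 to 0.52. For nonTG against C57BL/6, Kdm5c was 0.083 with array weights and 0.078 with the replicate block, Kdm7a 0.11 with the block and 0.25 with the oviduct covariate, and Kdm8 0.017 after cyclic loess, 0.0065 with the block and 0.087 with the covariate. Without 1 array, Kdm3b ran from -0.087 to 0.47, Kdm4a from -0.11 to 0.42, Kdm5c from -0.55 to 0.30, Kdm6a from -0.073 to 0.50, Kdm6b from -0.61 to 0.67, Kdm7a from -0.51 to 0.18 and Kdm8 from -0.28 to 0.12. For KDM1A TG against nonTG, Jmjd1c was 0.00058 after median centring and 0.12 with array weights, Kdm3b was -0.16 after quantile normalization, -0.15 after cyclic loess, -0.052 with the replicate block and -0.51 without KDM1A TG replicates 1 and 3, and Kdm6a was 0.023 after median centring. Without 1 array, Jmjd1c ran from -0.24 to 0.20, Kdm3b from -0.20 to 0.37, Kdm4c from -0.37 to 0.13, Kdm6a from -0.30 to 0.28 and Kdm6b from -1.01 to 0.27.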
